A study of Mus musculus with 24 samples.

Results

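Epiblast stem cell (EpiSC) lines established with a Wnt inhibitor were compared with EpiSC lines established by the original protocol. Lines 129Ba1, 129Ba2 and BNa17 formed the Wnt inhibitor lines (3 lines, 6 arrays). Lines Wt1 and 129C1, without the Wnt inhibitor IWP2, formed the original-protocol lines (2 lines, 4 arrays). These 10 arrays were chosen by line and method from the 24 mouse arrays of the series, whose other samples were IWP2-treated 129C1, mouse embryonic stem cells (mESCs) and embryonic tissue. EpiSCs are pluripotent cells derived from the post-implantation epiblast. All lines grew on feeder cells, from which the stem cells were separated before RNA was prepared. EpiSC media were either conventional or held a Wnt signalling inhibitor, so derivation with the inhibitor and growth in it cannot be told apart. The compound used for derivation, and the strain, passage and sex of each line, are not given in the sources used here. Each line had 2 replicate arrays, and nothing says that they came from separate cultures, so the line was the unit of every comparison between methods.

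In the mouse embryo, Wnt and Nodal signals pattern the epiblast as it forms the primitive streak, where mesoderm and definitive endoderm arise. Wnt proteins need the acyltransferase Porcn to be secreted, and their canonical pathway acts through beta-catenin and Tcf/Lef factors on target genes, several of which encode feedback regulators. EpiSCs depend on Nodal/activin and FGF signals, and their cultures are known to hold cells that express streak and endoderm genes. Eomes is a factor of the streak, Gsc of the organizer, and Foxa2 of endoderm and axial mesoderm, while Cer1 is a secreted inhibitor of Nodal and BMP proteins.

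Tcf/Lef factors bind DNA at sites with the core letters CTTTGA, or TCAAAG read on the other strand. Of 32851 promoter windows in the RefSeq table, 13.8% hold these letters in the 250 bases before the start. Among Foxa2, Cer1, Gsc, Eomes, Dkk1, Sp5, T and Axin2, only Dkk1, Sp5 and T have such letters before the start, and these windows are shown: Dkk1 and Sp5 are 2 of the 4 Wnt targets that fell, and T is a streak factor that did not pass the test. Each line gives the 250 bases before the start on the gene's own strand, 5′ to 3′, in GRCm38.p6 from RefSeq, with the Tcf/Lef core in capitals.
Dkk1 (chr19:30549497-30549746, minus strand): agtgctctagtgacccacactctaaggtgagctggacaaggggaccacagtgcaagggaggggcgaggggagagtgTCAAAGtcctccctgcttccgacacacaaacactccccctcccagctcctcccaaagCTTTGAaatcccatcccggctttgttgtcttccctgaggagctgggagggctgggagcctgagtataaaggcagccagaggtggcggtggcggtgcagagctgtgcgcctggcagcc
Sp5 (chr2:70474673-70474922, plus strand): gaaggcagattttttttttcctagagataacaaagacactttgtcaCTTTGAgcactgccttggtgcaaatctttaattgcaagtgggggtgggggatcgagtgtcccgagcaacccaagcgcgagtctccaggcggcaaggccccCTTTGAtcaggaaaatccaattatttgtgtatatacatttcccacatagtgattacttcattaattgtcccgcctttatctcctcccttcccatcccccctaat
T (chr17:8434173-8434422, plus strand): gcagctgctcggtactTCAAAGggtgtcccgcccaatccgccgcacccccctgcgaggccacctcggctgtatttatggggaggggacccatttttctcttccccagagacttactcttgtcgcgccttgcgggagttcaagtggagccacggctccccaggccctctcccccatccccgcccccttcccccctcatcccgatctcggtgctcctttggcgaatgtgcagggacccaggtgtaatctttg
The Dkk1 and Sp5 windows hold 2 matches each and the T window holds 1. In windows that also take in the 50 bases after the start, the core was found in 18.8% of 112 genes that fell and had a window, in 20.8% of 53 genes that rose and in 14.4% of 11148 genes tested. The T-box core AGGTGT, or ACACCT, was found in 25% of the genes that fell, 18.9% of those that rose and 13.7% of genes tested. The Fox core TGTTTAC, or GTAAACA, was found in 6.25%, 5.66% and 3.11% of the same groups. These matches describe letters only and were not tested.

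A level here is the log2 processed signal of a probe minus the 75th percentile of its array, so 0 lies at that percentile. BNa17 replicate 1 stood apart from the other 5 Wnt inhibitor arrays, with a 75th percentile of 69.3 signal units against 166.9 to 210.2. On it, 36.7% of probes were well above background, against 45.8% to 49.4%. The count of called genes is given both ways. So are the calls lost without this array among genes named by rule, but not among genes named after their values were seen. All 6 Wnt inhibitor arrays and both 129C1 arrays lay on 1 slide, and both Wt1 arrays lay on another, so a comparison within the slide is one with 129C1 alone.

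The lines also differed in genes of the sex chromosomes, which were looked at after the values were seen. Xist, the RNA that coats the inactive X chromosome, averaged -5.68 in 129Ba1, -1.13 in 129Ba2 and -5.01 in BNa17, against 0.27 in Wt1 and 0.41 in 129C1. Eif2s3y, a Y-linked translation factor gene, averaged 2.74 in 129Ba1, -4.50 in 129Ba2 and 3.12 in BNa17, against -4.37 in Wt1 and -5.53 in 129C1. Thus 129Ba1 and BNa17 had Y-linked signal and low Xist, and the other 3 lines had the reverse. The part of this split in the differences below was not tested. Of 498 X-linked genes tested, 8 fell and 4 rose (2.41% called), against 1.54% called of 13539 autosomal genes.

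Markers of the labelled cell type were present on every array. Pou5f1, a core pluripotency factor, had a median level of 5.96 in Wnt inhibitor lines (5.68 to 7.09), against 5.36 and 5.65 in Wt1 and 5.97 and 5.75 in 129C1. All 20 feeder fibroblast markers were also well above background on all 10 arrays, and their summed linear level ranged from 296 to 750 in Wnt inhibitor lines and from 237 to 432 in original-protocol lines. The limma test called none of the 20, and 1 had an unadjusted p below 0.05, against 2424 of all 14043 genes tested. Of 19 visceral endoderm markers, 9 were well above background on no Wnt inhibitor array and 6 on no original-protocol array, with Afp, Apoa4 and Ttr among both. Apoa1, Apob and Sox7 were above background on no Wnt inhibitor array but on at least 1 original-protocol array. The summed visceral endoderm level was 41.0 to 59.3 in Wnt inhibitor lines and 55.8 to 74.8 in original-protocol lines. The trophoblast markers Cdx2, Elf5, Hand1 and Tpbpa were above background on none of the 10 arrays.

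Between the methods, a small share of genes passed the test, and more of them were lower than higher in the Wnt inhibitor lines. A gene was tested when 1 or more of the 5 lines had it well above background on both of its arrays, and was called at a limma adjusted p below 0.05 with at least a 2-fold difference. Of 14043 genes tested, 221 were called (1.57%), of which 146 fell (1.04%) and 75 rose (0.534%). Without BNa17 replicate 1 the count was 237, of which 185 were among the 221, and without BNa17 replicate 2 it was 102. Scaling by the array median gave 117 lower and 103 higher genes. The 6 arrays did not overlap the 4 for 219 of the 221 genes. Over all genes tested, arrays without overlap made up 6.67% on the lower and 9.47% on the higher side. Many called genes were near background in one kind of line: 48 that fell were well above background on no Wnt inhibitor array, and 29 that rose on no original-protocol array. These genes passed the filter through the other kind of line alone, so the filter favoured their direction. Counts in the lists below stand beside the 1.04% of genes tested that fell and the 0.534% that rose. In bulk samples, fewer cells of a type and less RNA per cell cannot be told apart.

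**Figure D1:**
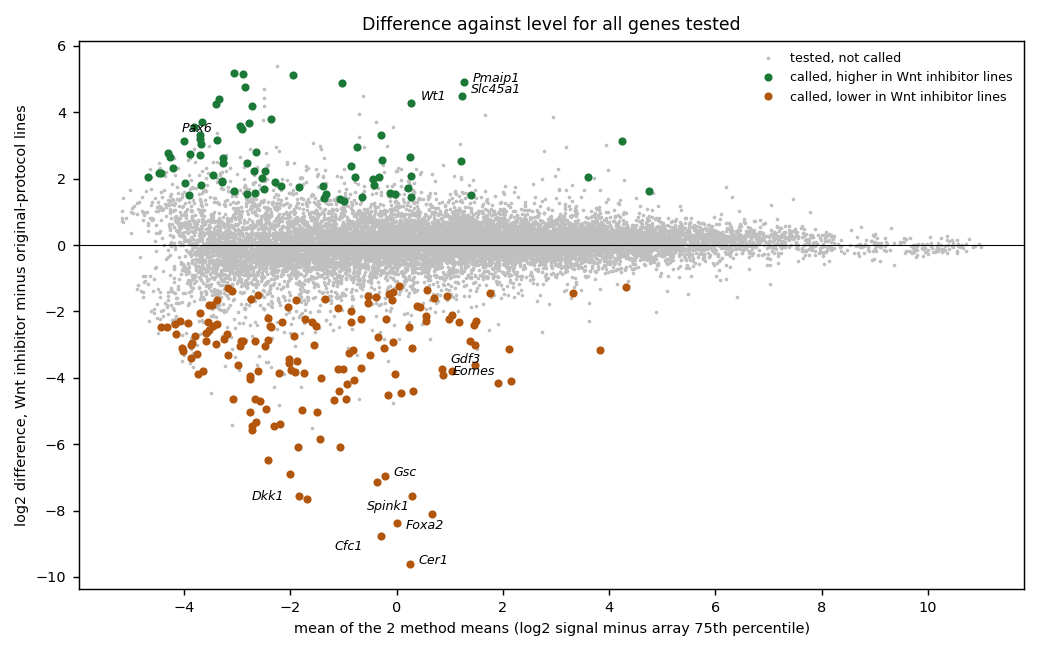
Each point is a gene tested, with the log2 difference of Wnt inhibitor minus original-protocol lines on the vertical axis and the mean log2 level on the horizontal axis. The 75 genes called higher and the 146 called lower are coloured, and the largest falls reach further from 0 than the largest rises.

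Definitive endoderm genes had the lowest median difference of the lists described here. Of 16 genes on the list, 15 were tested, 11 fell and none rose, with a median log2 difference of -5.03 against 0.07 over all genes tested. Of all genes tested, 1.04% fell. Cer1, Foxa2, Hhex, Sox17, Gata6, Gata4 and Foxa3 passed the filter through original-protocol lines alone. The filter thus favoured falls, and the count and median are not evidence about the list. The median was -5.55 against 129C1 alone and -4.97 against Wt1 alone. Without BNa17 replicate 1, 9 fell, without BNa17 replicate 2, 7 fell, and without line BNa17, 4 fell.

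Foxa2, a forkhead factor of endoderm and axial mesoderm, had levels of -5.55 to -3.38 in Wnt inhibitor lines (median -4.10), against 3.79 and 4.65 in Wt1 and 4.37 and 3.98 in 129C1. It was well above background on 1 of the 6 Wnt inhibitor arrays, and the groups lay far apart. The log2 difference was -8.39 ± 0.31 (SE; adjusted p = 0.00278), and a second Foxa2 probe gave -7.60. Cer1 ranged from -5.67 to -3.98 in Wnt inhibitor lines (median -4.45), against 4.04 and 4.38 in Wt1 and 6.01 and 5.77 in 129C1. No Wnt inhibitor array measured it well above background. The fall is therefore a bound, taken against the lowest signal well above background on each array, or the probe's own where higher. By that measure Cer1 was at least 399-fold lower (adjusted p = 0.00455). The p-values given beside such bounds come from the values as measured.

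Sox17, a Sox factor needed for definitive endoderm, was above background on no Wnt inhibitor array, against levels of 0.85 and 1.11 in Wt1 and 1.55 and 1.23 in 129C1. The fall was at least 28.1-fold (adjusted p = 0.00602). Hhex, a homeobox factor of anterior endoderm, ran from -5.17 to -3.49 in Wnt inhibitor lines (median -3.98), against 1.29 and 1.65 in Wt1 and 2.64 and 2.35 in 129C1. It was above background on 1 of the 6 Wnt inhibitor arrays, the groups did not overlap, and the difference was -6.08 ± 0.41 (adjusted p = 0.00559). Spink1, a secreted trypsin inhibitor, had -4.20 to -2.54 in Wnt inhibitor lines, against 3.83 and 4.21 in Wt1 and 5.66 and 5.18 in 129C1. With 2 of the 6 above background, the log2 difference was -8.10 ± 0.49 (adjusted p = 0.00503).

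The other 6 called endoderm genes were named after their values were seen. Which of them lose the call without BNa17 replicate 1 is not given here, beyond the list count above. Gata6, a zinc finger factor of endoderm, was above background on 1 of the 6 Wnt inhibitor arrays and differed by -5.84 ± 0.41 (adjusted p = 0.00631). Foxa1, a forkhead factor, differed by -5.03 ± 0.54 (adjusted p = 0.0212), and the chemokine receptor gene Cxcr4 by -3.48 ± 0.47 (adjusted p = 0.039), each with 3 of the 6 above background. The gut hormone gene Pyy lay at the threshold (-1.86 ± 0.28, adjusted p = 0.0498). Gata4 and Foxa3 were above background on no Wnt inhibitor array. Gata4 averaged 0.36 in Wt1 and 0.67 in 129C1, and Foxa3 averaged -2.11 in Wt1 and -2.26 in 129C1 (adjusted p = 0.00977 for Gata4 and 0.0498 for Foxa3).

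Endoderm list members that were not called lay on both sides of 0. Trh, which encodes thyrotropin-releasing hormone, had 5.71 to 8.10 in Wnt inhibitor lines, against 6.39 and 6.80 in Wt1 and 8.24 and 7.89 in 129C1 (-0.60 ± 0.58, adjusted p = 0.619). Cpm and Cldn4, a claudin gene, differed by 0.42 ± 0.59 and 0.68 ± 0.40. Sfrp5, named after its values were seen, averaged -0.39 in Wt1 and 3.62 in 129C1. It differed by -4.64 ± 1.13 and was not called (adjusted p = 0.139). Of 11 visceral endoderm genes tested, Rbp4, a retinol carrier gene, fell (-3.001 ± 0.30, adjusted p = 0.0184) and none rose. In the limma test 5 of the 11 had an unadjusted p below 0.05, against 2424 of all 14043 genes tested. The probes of Apoa2, an apolipoprotein gene on that list, disagreed. The representing probe differed by 0.38 ± 0.32, while a second averaged 0.67 in Wnt inhibitor lines, above background on all 6 arrays, and -5.89 in original-protocol lines, above background on none.

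**Figure D2:**
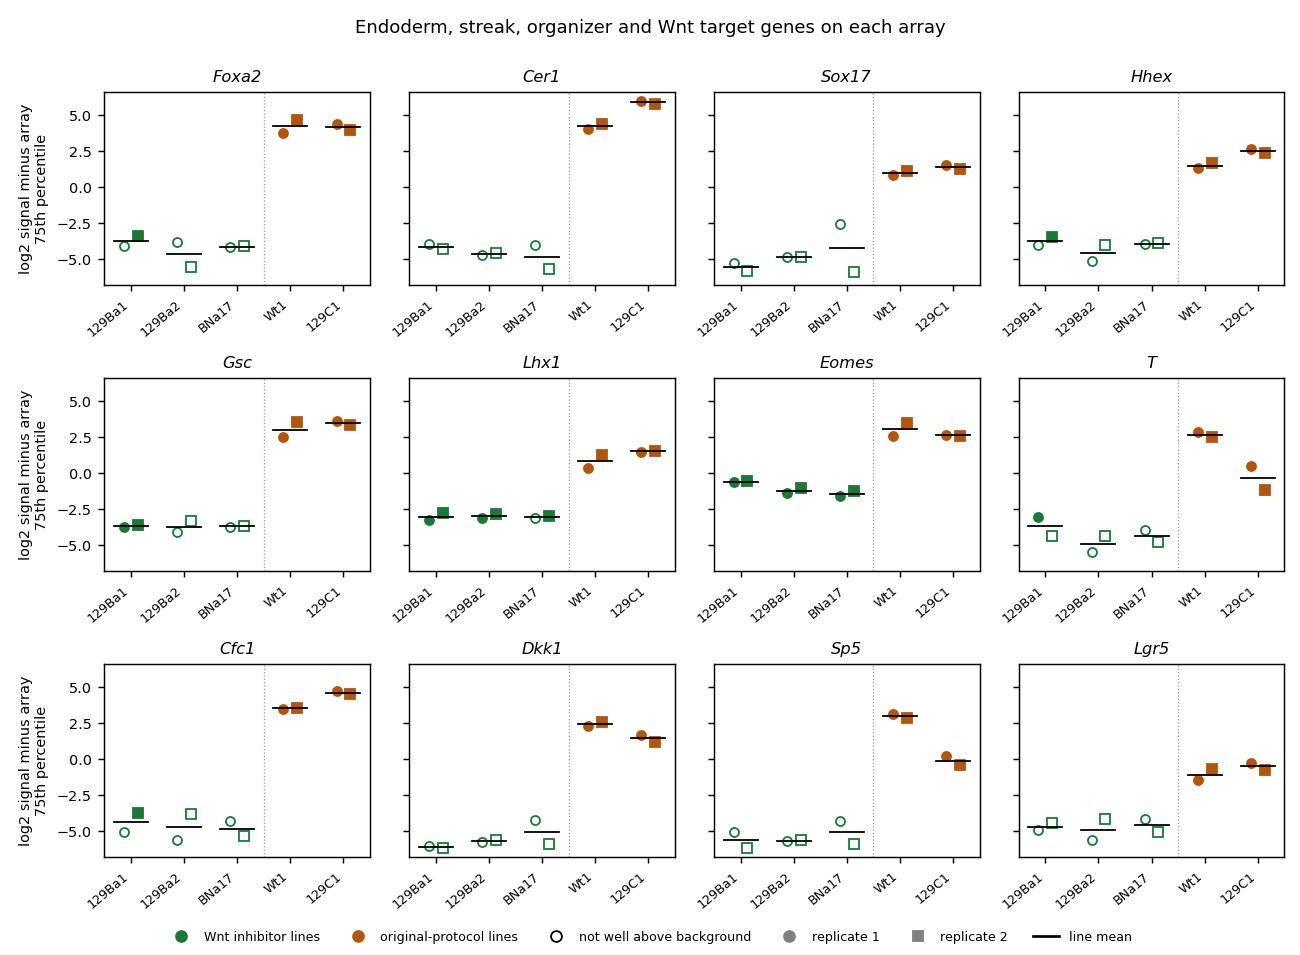
Levels (log2 signal minus the array's 75th percentile) of 12 genes on each array, with Wnt inhibitor lines left of original-protocol lines; circles and squares are replicates 1 and 2, open symbols were not well above background, and bars are line means. Foxa2, Cer1 and Cfc1 lie far lower on all 6 Wnt inhibitor arrays, Eomes is lower but measured on all 6, and T and Sp5 are higher in Wt1 than in 129C1.

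Of 12 organizer genes, 10 were tested, 3 fell (Gsc, Foxj1 and Lhx1) and none rose, with a list median of -0.87. Of all genes tested, 1.04% fell. Gsc, a homeobox repressor of the organizer, ranged from -4.10 to -3.35 in Wnt inhibitor lines (median -3.71), against 2.52 and 3.52 in Wt1 and 3.65 and 3.35 in 129C1. The SD of line means was 0.018 over the 3 Wnt inhibitor lines and 0.336 over the 2 original-protocol lines. The difference was -6.97 ± 0.22 (adjusted p = 0.00211). Of the 6 Wnt inhibitor arrays, 2 measured it above background. Lhx1, a LIM homeobox factor, had -3.29 to -2.79 in Wnt inhibitor lines, against 0.38 and 1.26 in Wt1 and 1.49 and 1.53 in 129C1 (-4.19 ± 0.26, adjusted p = 0.00531). Foxj1, a regulator of motile cilia, differed by -4.40 ± 0.32 (adjusted p = 0.00663). The RNA-binding protein gene Bicc1 and the homeobox gene Otx2 were not called (-0.33 ± 0.83 and -0.96 ± 0.44).

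Among primitive streak and early mesoderm genes a single member, Eomes, passed the test. Of 20 genes, 16 were tested and 15 had a negative difference, with a median of -1.81. That median was -0.33 against 129C1 alone, on the same slide, and -2.20 against Wt1 alone. Eomes, a T-box factor of streak and endoderm, was measured on all arrays, at -1.59 to -0.58 in Wnt inhibitor lines (median -1.16), against 2.59 and 3.51 in Wt1 and 2.65 and 2.60 in 129C1. The difference was -3.92 ± 0.32 (adjusted p = 0.00999), and the adjusted p was 0.0581 without line 129Ba2 and 0.0553 without line BNa17.

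T (brachyury), the T-box factor of the streak, had levels of -5.51 to -3.05 in Wnt inhibitor lines (median -4.38), against 2.86 and 2.50 in Wt1 and 0.48 and -1.15 in 129C1. It was above background on 1 of the 6 Wnt inhibitor arrays. No array overlapped between the groups, but the line means of Wt1 and 129C1 lay apart (SD 2.13, n = 2). The difference of -5.51 ± 0.91 did not pass the test (adjusted p = 0.0603). Mesp1, a mesoderm factor chosen after its values were seen, had -6.38 to -4.44 in Wnt inhibitor lines, against -0.25 and -1.49 in Wt1 and -4.97 and -5.97 in 129C1. It was thus above background in Wt1 alone, and so was Evx1. Fgf8, an FGF ligand of the streak, differed by -2.29 ± 0.42 (adjusted p = 0.0783). Wnt3, the Wnt ligand needed for streak formation, differed by -2.45 ± 0.59 (adjusted p = 0.136). Neither was called, although the arrays of the groups did not overlap for these genes.

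Of 22 Nodal pathway genes tested, 2 fell (Cfc1 and Gdf3) and none rose, with a median of 0.13. Of all genes tested, 1.04% fell, and Cfc1 passed the filter through original-protocol lines alone. Cfc1 (Cryptic), a co-receptor for Nodal and related ligands, ranged from -5.65 to -3.74 in Wnt inhibitor lines (median -4.69), against 3.51 and 3.58 in Wt1 and 4.71 and 4.56 in 129C1. A single Wnt inhibitor array measured it above background, and the difference was -8.75 ± 0.37 (adjusted p = 0.0028). Gdf3, a TGF-beta family ligand, had -1.50 to -0.60 in Wnt inhibitor lines, against 1.93 and 1.78 in Wt1 and 3.62 and 3.51 in 129C1 (-3.72 ± 0.53, adjusted p = 0.0434). Its second probe gave -1.94, and with both probes averaged the adjusted p was 0.0532. Nodal itself had 3.58 to 4.52 in Wnt inhibitor lines, against 3.47 and 3.89 in Wt1 and 3.40 and 3.26 in 129C1, and was not called (0.69 ± 0.27, adjusted p = 0.285). Of its feedback antagonists, Lefty1 differed by 0.58 ± 0.43 (adjusted p = 0.525) and Lefty2 by -1.75 ± 0.36 (adjusted p = 0.106).

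Of 25 Wnt target and feedback genes, 19 were tested, 4 fell (Dkk1, Sp5, Lgr5 and Ascl2) and none rose, with a median of -0.58. Of all genes tested, 1.04% fell. Dkk1, Sp5 and Lgr5 passed the filter through original-protocol lines alone. The filter thus favoured falls, and the count is not evidence about the list. Dkk1, a secreted antagonist of Wnt co-receptors, was above background on no Wnt inhibitor array (-6.16 to -4.26), against 2.34 and 2.56 in Wt1 and 1.67 and 1.21 in 129C1. It was at least 47.6-fold lower (adjusted p = 0.00455). Sp5, a zinc finger factor downstream of beta-catenin, was also above background on none of the 6, against 3.12 and 2.83 in Wt1 and 0.21 and -0.39 in 129C1. It was at least 33.6-fold lower (adjusted p = 0.0333 on the values as measured). Its adjusted p was 0.0742 with dim values raised to the lowest signal well above background, and 0.0604 with normexp background correction. Leaving out 1 Wnt inhibitor line gave 0.109 to 0.142. Lgr5, a receptor for R-spondins, was at least 7.15-fold lower (adjusted p = 0.00542). Ascl2, a helix-loop-helix factor, was measured on every array and averaged 0.02 in Wnt inhibitor lines and 2.34 in original-protocol lines (-2.32 ± 0.26, adjusted p = 0.0245).

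Axin2 encodes a scaffold protein and is widely read as a sign of canonical Wnt activity. Its representing probe was above background on no Wnt inhibitor array and on the 2 Wt1 arrays, with levels of -6.16 to -4.22 in Wnt inhibitor lines, against -1.76 and -1.98 in Wt1 and -4.11 and -5.49 in 129C1. The groups overlapped, and it was not called (adjusted p = 0.285). A second probe was above background on 1 Wnt inhibitor array and all 4 original-protocol arrays, averaging -3.93 in Wnt inhibitor lines and -2.60 in original-protocol lines. Ccnd1, Notum and Tcf7, further targets, differed by 0.51 ± 0.40, -0.07 ± 0.24 and 0.21 ± 0.25 and were not called. Among 35 tested Wnt ligands, receptors and secreted antagonists 1 fell, Porcn. It had -1.10 to -0.63 in Wnt inhibitor lines, against 0.63 and 0.84 in Wt1 and 0.91 and 0.60 in 129C1 (-1.65 ± 0.20, adjusted p = 0.029). This gene is X-linked, and against 129C1 alone, on the same slide, it differed by -1.66. Its call was lost with the slide as a block, which leaves 129C1 alone for the original protocol. So were those of other named genes, Bmp7, Flt1, Fam183b and Asb4 among them. None of 18 Wnt transduction genes was called by limma, and 1 had an unadjusted p below 0.05.

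**Figure D3:**
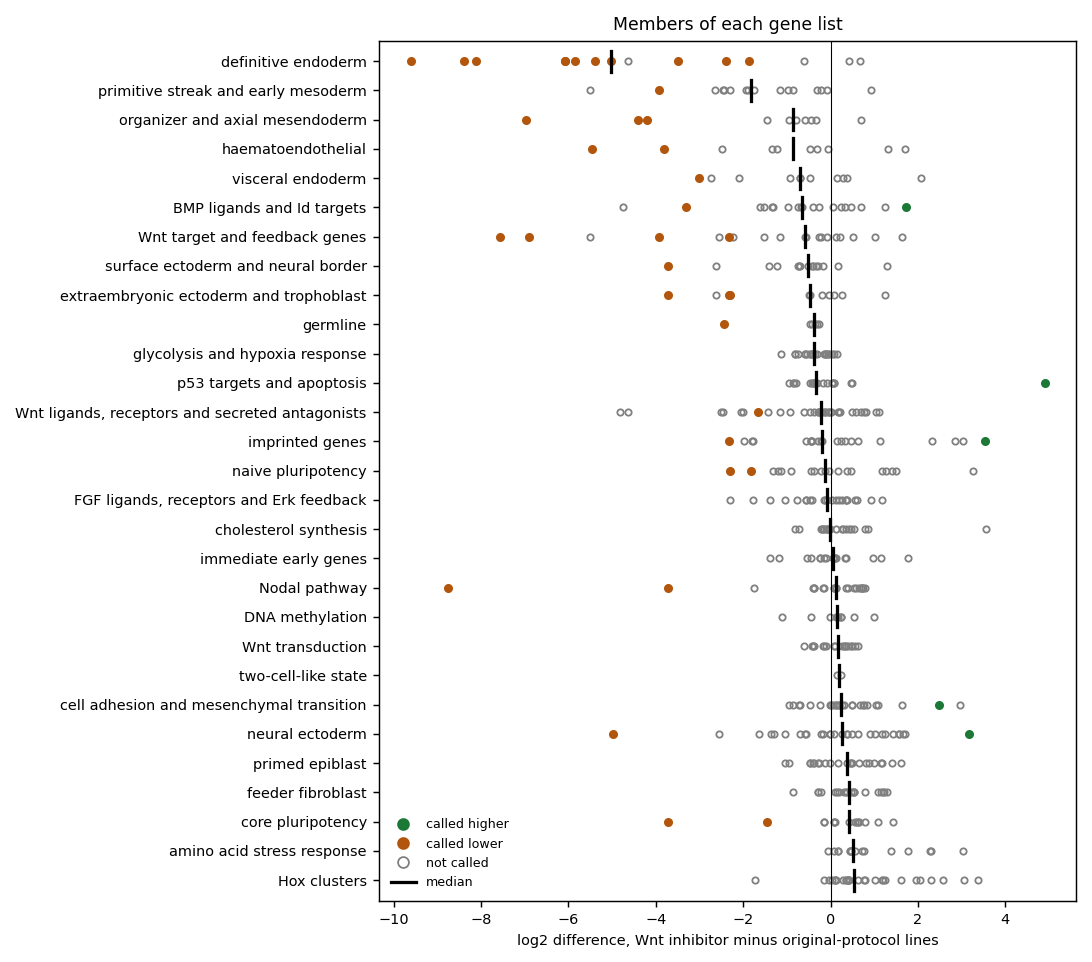
Log2 difference (Wnt inhibitor minus original-protocol lines) of each tested member of the 29 gene lists, with called members filled in colour and bars at list medians. Definitive endoderm has 11 of 15 members called lower, and no other list has more than 4 called. Members near background in all Wnt inhibitor lines passed the filter through original-protocol lines alone.

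Of 15 core pluripotency genes tested, 2 fell, Gdf3 among them, and none rose (median 0.43), beside the 1.04% of all genes tested that fell. Sox2, a core factor, had 2.38 to 2.83 in Wnt inhibitor lines, against 2.16 and 1.98 in Wt1 and 2.01 and 1.93 in 129C1. Its arrays did not overlap, but the difference of 0.61 ± 0.18 did not pass the test (adjusted p = 0.193). Pou5f1 differed by 0.43 ± 0.26 (adjusted p = 0.448). Nanog differed by -0.15 ± 0.36 (adjusted p = 0.854), and by 0.04 under median scaling.

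Of 19 naive pluripotency genes tested, 2 fell and none rose. Tfap2c, an AP-2 factor, differed by -2.31 ± 0.35 (adjusted p = 0.0494) and Tfcp2l1, a grainyhead family factor above background on 1 of the 6 Wnt inhibitor arrays, by -1.81 ± 0.25 (adjusted p = 0.0392). Without BNa17 replicate 1 their adjusted p-values were 0.0743 and 0.0626. For Tfcp2l1 the limma adjusted p was 0.537 with normexp background correction. With dim values raised to the lowest signal well above background it was 0.228. Zfp42 (Rex1), a naive marker, had -6.13 to -0.38 in Wnt inhibitor lines, with 129Ba2 replicate 1 highest, against -5.19 and -6.21 in Wt1 and -3.91 and -4.42 in 129C1, and was not called (adjusted p = 0.558). None of 23 primed epiblast genes was called by limma (median 0.38), and 6 had an unadjusted p below 0.05. Fgf5, an FGF ligand of the post-implantation epiblast, had 2.65 to 3.88 in Wnt inhibitor lines, against 3.29 and 3.72 in Wt1 and 5.06 and 4.92 in 129C1 (-1.04 ± 0.53, adjusted p = 0.37). Dnmt3b, a de novo DNA methyltransferase, differed by 1.00 ± 0.35 (adjusted p = 0.245).

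Of 29 neural ectoderm genes tested, Hesx1 fell and Pax6 rose. Hesx1, a homeobox repressor of the anterior neural plate, was above background on no Wnt inhibitor array, against -0.11 and -0.28 in Wt1 and 1.83 and 1.42 in 129C1, and was at least 20.3-fold lower (adjusted p = 0.0212). Pax6, a paired-box factor of neural progenitors, had -2.69 to -1.15 in Wnt inhibitor lines and was above background on no original-protocol array. It was at least 4.72-fold higher (adjusted p = 0.0322), while a second, dim Pax6 probe gave 0.43. The adjusted p was 0.146 under normexp background correction, 0.143 with probes averaged, 0.141 without line 129Ba2 and 0.133 without line BNa17. Sox1, an early neural factor, had 0.51 to 2.17 in Wnt inhibitor lines, against 1.503 and 0.677 in Wt1 and -1.68 and -1.69 in 129C1 (1.43 ± 0.90, adjusted p = 0.456). The neural list median was 0.91 against 129C1 and -0.23 against Wt1.

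Hox genes also depended on the line chosen. None of 28 tested was called by limma, 3 had an unadjusted p below 0.05, and the median difference was 1.23 against 129C1 and 0.06 against Wt1. The median difference of feeder fibroblast markers was 0.99 against 129C1 and -0.26 against Wt1, and their part in these results was not tested.

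Single genes passed the test in further lists. Bmp7, a BMP ligand, had -2.82 to -1.49 in Wnt inhibitor lines, against 1.72 and 1.39 in Wt1 and 0.88 and 0.65 in 129C1 (-3.31 ± 0.38, adjusted p = 0.0267). Bmpr1b, a type I BMP receptor gene, rose by 1.74 ± 0.25 (adjusted p = 0.0468), and both were the called members of 19 BMP genes, of which 2 fell without BNa17 replicate 1. The limma adjusted p of Bmpr1b was 0.0924 under normexp background correction, 0.0529 under quantile normalization and 0.0742 with no filter on dim probes. Krt7, a simple epithelial keratin gene, differed by -3.73 ± 0.36 (adjusted p = 0.0149). Krt7, Ascl2 and Tfap2c were the 3 called of 11 trophoblast genes tested (2 without BNa17 replicate 1), and each also stands on another list. Of all genes tested, 1.04% fell. Prdm1 (Blimp1), a transcriptional repressor, differed by -2.45 ± 0.26 (adjusted p = 0.0212). Of 10 haematoendothelial genes tested, the X-linked erythroid factor gene Gata1 fell at least 12.3-fold (adjusted p = 0.0139) and Flt1, a VEGF receptor gene, differed by -3.81 ± 0.45 (adjusted p = 0.0271). The endothelial markers Cdh5, Tie1 and Tek were above background on none of the 10 arrays. Ocln, a tight junction gene, rose by 2.47 ± 0.38 (adjusted p = 0.0498) as 1 of 26 adhesion genes tested. It was called under 9 of 27 alternatives, with an adjusted p of 0.0562 without BNa17 replicate 1, 0.0507 from the authors' deposited values and 0.15 under normexp background correction.

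Of 22 imprinted genes tested, Kcnq1ot1 rose and Ascl2 fell, and 2 fell without BNa17 replicate 1. Kcnq1ot1, a paternally expressed non-coding RNA, was above background on all 6 Wnt inhibitor arrays (-3.05 to -0.84) and on no original-protocol array. It was at least 3.93-fold higher (adjusted p = 0.00455), with an adjusted p of 0.0929 under normexp background correction. Mest, Meg3 and Snrpn were not called (-0.29 ± 0.30, -0.56 ± 0.22 and 0.62 ± 0.19).

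Of the 221 called genes, 72 were well above background on each of the 10 arrays. Among these, Pmaip1 (Noxa), a BH3-only gene that promotes apoptosis, had the largest rise. It had 3.47 to 3.94 in Wnt inhibitor lines, against -0.84 and -0.17 in Wt1 and -1.91 and -1.84 in 129C1. The difference was 4.90 ± 0.43 (adjusted p = 0.0122). Pmaip1 was the only called gene of 20 p53 target and apoptosis genes, with Bax, Aen and Phlda3 at 0.09 ± 0.20, -0.32 ± 0.21 and -0.94 ± 0.27. The gene Wt1, which encodes the Wilms tumour factor, had 2.14 to 2.91 in Wnt inhibitor lines, against -1.56 and -1.90 in line Wt1 and -1.77 and -2.19 in 129C1. It rose by 4.27 ± 0.24 (adjusted p = 0.00455). Slc45a1, a sugar transporter gene, rose by 4.48 ± 0.37 (adjusted p = 0.0112). Penk, an opioid precursor gene, had 5.65 to 5.95 in Wnt inhibitor lines, against 2.85 and 3.94 in Wt1 and 2.14 and 1.78 in 129C1 (3.14 ± 0.43, adjusted p = 0.0397). The limma adjusted p of Penk was 0.0624 under quantile normalization and 0.0522 with no filter on dim probes. Leaving out 1 Wnt inhibitor line gave 0.124 to 0.175. The other 6 of the 10 largest rises were Rbm43, Nefm, Gdpd2, Gstt2, Gpx7 and Fibin, between 2.08 and 3.31. Fibin had an adjusted p of 0.0657 without BNa17 replicate 1.

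**Figure D4:**
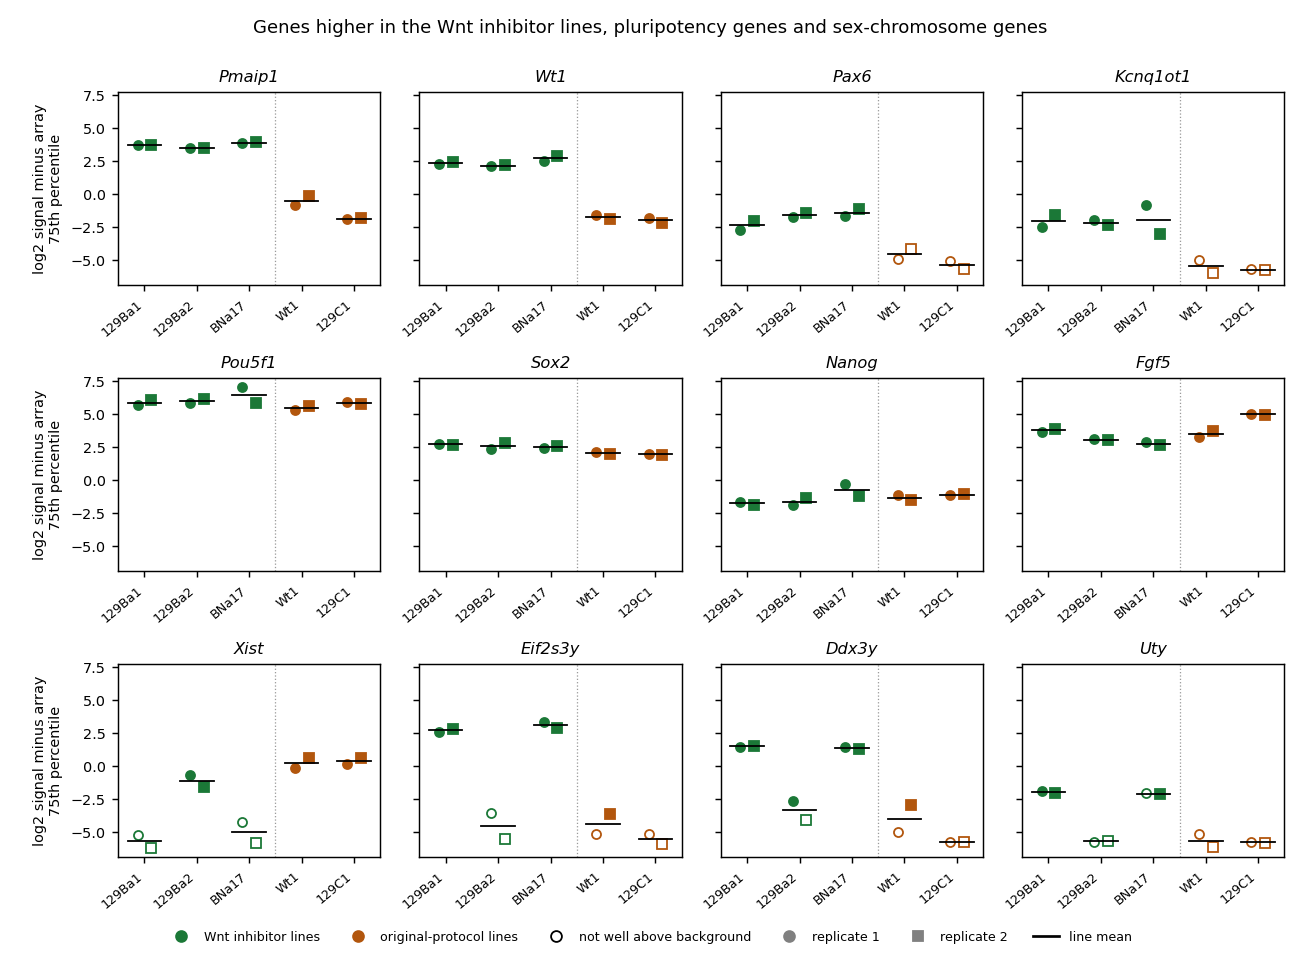
Levels (log2 signal minus the array's 75th percentile) on each array of 4 genes that rose, 4 pluripotency and epiblast genes and 4 sex-chromosome genes, with Wnt inhibitor lines left of original-protocol lines; circles and squares are replicates 1 and 2, open symbols were not well above background, and bars are line means. Pmaip1, Wt1, Pax6 and Kcnq1ot1 are higher on all 6 Wnt inhibitor arrays, and the sex-chromosome genes set 129Ba1 and BNa17 apart from the other 3 lines.

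The largest falls among genes measured on all 10 arrays were those of Fam183b, Asb4 and Ifitm1. Ifitm1, an interferon-induced membrane protein gene, had -0.26 to 0.61 in Wnt inhibitor lines, against 5.58 and 4.61 in Wt1 and 3.45 and 3.19 in 129C1 (-4.10 ± 0.53, adjusted p = 0.035). Fam183b differed by -4.51 ± 0.54 and Asb4 by -4.16 ± 0.61 (adjusted p = 0.047 for Asb4, and 0.0532 without BNa17 replicate 1). A second Asb4 probe gave -1.97. Asb4 was higher in BNa17 (1.07 and 1.02) than in the other Wnt inhibitor lines (-1.15 to -0.53). Nme5 differed by -3.88 ± 0.26 (adjusted p = 0.00559) and Slc39a4, a zinc importer gene, by -3.61 ± 0.29 (adjusted p = 0.00977). Amot, an X-linked regulator of Hippo signalling, had 1.86 to 2.59 in Wnt inhibitor lines, against 4.40 and 5.18 in Wt1 and 6.07 and 5.98 in 129C1 (-3.16 ± 0.41, adjusted p = 0.0341).

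Several lists held no gene called by limma. At an unadjusted p below 0.05 there were 5 of 21 cholesterol synthesis genes, 3 of 22 glycolysis and hypoxia genes, 7 of 16 amino acid stress genes, 4 of 17 immediate early genes, 5 of 23 FGF pathway genes and 2 of 10 DNA methylation genes, against 2424 of all 14043 genes tested. Glycolysis genes had negative differences in 19 of 22 (median -0.38), with Aldoa at -0.59 ± 0.24 and Ldha at -0.37 ± 0.25. Amino acid stress genes had 1 negative difference among 16 (median 0.52). Atf4, the factor that drives this response, had 7.66 to 8.71 in Wnt inhibitor lines, against 6.82 and 7.46 in Wt1 and 6.65 and 6.14 in 129C1 (1.38 ± 0.33, adjusted p = 0.134).

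The 3 Wnt inhibitor lines were set against each other with a moderated F test over their 6 arrays. Of 13552 genes tested, 1 was called (0.00738%), the Y-linked gene Uty, and 1970 had an unadjusted p below 0.05. The count was 257 without BNa17 replicate 1, 3119 without BNa17 replicate 2 and 197 under normexp background correction. In a fit of all 24 arrays, which takes the spread from 12 groups, 966 genes differed among these lines. The arrays of BNa17 differed at least 2-fold at 19.01% of genes, against 1.82% for 129Ba1, 4.80% for 129Ba2, 5.13% for Wt1 and 2.29% for 129C1. Line means differed that much at 4.67% to 11.8% of genes within the Wnt inhibitor lines, at 12.5% to 19.5% across methods and at 14.5% between Wt1 and 129C1. The pair across methods with the smallest share was 129Ba2 and 129C1.

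**Figure D5:**
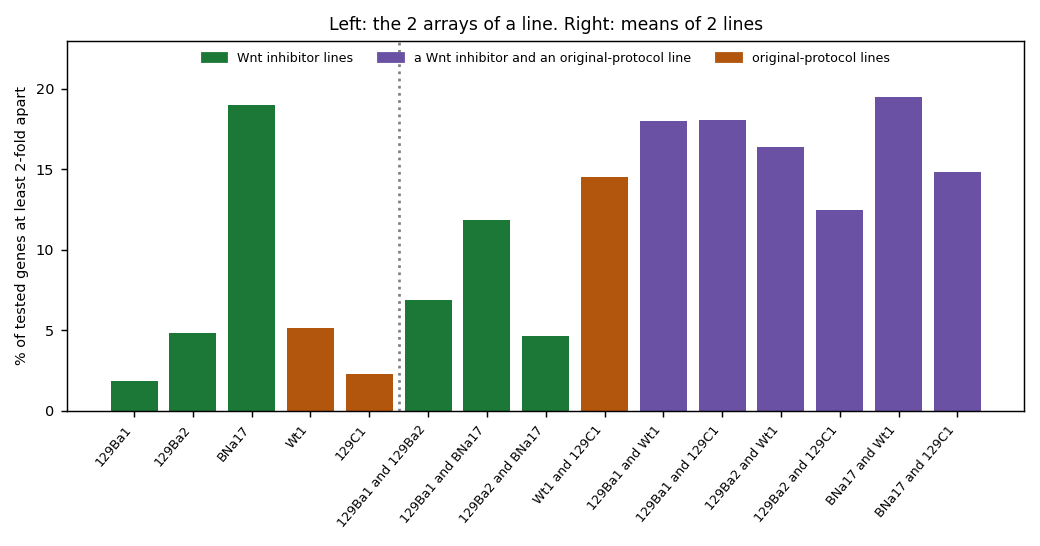
Percent of the 14043 tested genes at least 2-fold apart between the 2 arrays of each line (left) and between the means of each pair of lines (right). BNa17 has the largest gap between its own arrays (19.01%), and pairs across methods run from 12.5% to 19.5%, against 14.5% between Wt1 and 129C1.

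On the same scale, IWP2-treated 129C1 averaged -5.17 for Foxa2, -4.66 for Cer1, -2.89 for Gsc, -0.90 for Eomes, -1.41 for Pmaip1, 1.40 for Wt1 and -3.10 for Pax6. Over epiblast of embryonic day 5.5, epiblast of day 6.5 and ectoderm of day 7.5, in that order, Foxa2 averaged 0.45, 4.03 and 0.83, Cer1 -0.86, 0.82 and -4.42, and Gsc -0.58, 3.02 and -1.05. Eomes averaged 2.80, 4.96 and 0.48, Pmaip1 3.98, 4.16 and 2.45, and Wt1 1.29, -1.57 and -0.96. The 2 arrays of day 5.5 lay apart for Foxa2 (-0.69 and 1.58) and Cer1 (-2.88 and 1.16). They lay closer for the other genes named here, with Gsc at -0.92 and -0.24. Treated 129C1 shared a slide with line Wt1, and the embryonic samples lay on slides without EpiSC lines. These levels (2 arrays each) were not tested.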

How the data were processed

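RNA was labelled with Cy3 and hybridised to one-colour Agilent arrays, per the labels' protocols. The deposited scanner files give processed intensity per spot, background-corrected by Feature Extraction 10.5.1.1, per the file headers. The authors' deposited log2 values, whose scale and centring are not stated (column medians -0.351 to 0.781), served as an alternative. Control spots and flagged outliers were left out, and log2 intensity minus the array's 75th percentile was computed. Of 55681 probes, 27235 matched a RefSeq accession and named 20660 genes, each read from 1 representing probe. Line means (3 against 2) were fitted with limma 3.58.1 in R 4.3.3 with Benjamini-Hochberg adjustment. On simulated data, 84% of genes changed by a log2 of 3 and 28% of those changed by 1.5 were recovered over 14043 genes. Its noise was independent and normal, with the spread that limma fitted. No background floor, slide or weak array was simulated, so recovery in the real data may differ. The files hold no mean signal, so normexp used the median signal. Slides were tried as a block, among 28 alternatives, which gives the same fit as leaving out line Wt1. Genes were named by rule: the 4 markers, the 10 largest rises and falls measured on all arrays, up to 5 called and 3 uncalled members of each list, and 15 set genes. Members, lists and the rule were chosen with earlier results of these data known. The number of arrays limits precision, and p-values measure only the spread between these lines. Results for a few named genes are not reported here.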

Additional observations from a re-analysis of the deposited data

Results flagged for a closer look

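Of 146 values examined, 14 had 1 array far from the others of its group. Chance marks about 1 group in 20 if its arrays are independent. Arrays of the same line were correlated (consensus 0.416), so that rate need not hold here. BNa17 replicate 1 had a 75th percentile of 69.26 signal units (others 166.9 to 210.2) and 36.71% of probes well above background (others 45.81% to 49.44%). On the same array, Fgf8 was at 3.336 (others 2.007 to 2.466), Pou5f1 at 7.093 (5.676 to 6.137), Snrpn at 3.745 (4.099 to 4.239) and Gstt2 at 3.575 (1.925 to 2.518). Bmp4 was at 0.7981 in 129Ba2 replicate 1 (0.1675 to 0.3417), and Slc39a4 at -0.9398 in BNa17 replicate 2 (-0.3332 to -0.01198). In original-protocol lines, Wt1 replicate 2 stood apart with Eomes at 3.506 (2.59 to 2.648), Ccnd1 at 4.612 (3.713 to 3.781) and Nanog at -1.51 (-1.129 to -1.074). Itga6 was at 4.74 in Wt1 replicate 1 (4.475 to 4.509), Cldn4 at -2.583 in 129C1 replicate 2 (-1.316 to -1.081) and Krt7 at 0.7085 in 129C1 replicate 1 (0.902 to 0.9389).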

How the results depend on the processing

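Of 51 called genes followed through the alternatives, which leave out those of the last section, none reversed under the alternatives tried, 28 were called under every alternative that kept all arrays and 11 under every alternative. Called genes numbered 135 (36 higher) with no filter on dim probes, and 77 (30 higher, 47 lower) among genes well above background on all 10 arrays, where 0 endoderm, 0 organizer, 1 Nodal pathway and 1 Wnt target gene were called, since fewer genes were tested. With arrays as the unit and line as a random block, 726 were called (330 higher, 396 lower), and 638 (285 higher, 353 lower) with a replicate block added. Replicate numbers did not pair the arrays (correlations of -0.282 to 0.201 over 10 pairs). Streak genes called lower numbered 3 with normexp, 2 with trend and robust variance, 5 with the random block, 5 with the replicate block and 2 with the slide block. Nodal pathway calls fell to 1 with quantile normalization, no filter or all probes averaged. The normexp setting called 190 genes, of which 114 were among the 221. Among the lines compared, only Wt1 lay on its slide. The slide block thus gave the same fit as leaving Wt1 out, though it kept all arrays. The cause of the other changes was not tested. Leaving out 1 array gave 102 to 238 called genes (29 to 86 higher, 73 to 164 lower), 7 to 11 endoderm, 1 to 2 streak, 3 organizer, 1 to 2 Nodal pathway and 3 to 5 Wnt target genes. Leaving out 1 line gave 79 without 129Ba1, 40 without 129Ba2, 42 without BNa17, 191 without Wt1 and 609 without 129C1 (10 to 284 higher, 30 to 325 lower), with 4 to 10 endoderm, 0 to 8 streak, 3 organizer, 1 to 2 Nodal pathway and 2 to 7 Wnt target genes; a lone line is then assumed to vary like the others. Differences among the Wnt inhibitor lines numbered 197 with normexp, 6 with quantile normalization, 2 with trend and robust variance, 0 with no filter, 0 with a replicate block, 966 with all 24 arrays, and 0 to 3119 when 1 array was left out (257 without BNa17 replicate 1, 3119 without BNa17 replicate 2). Uncalled differences that changed sign were Trh (0.133 without line 129C1; -1.341 to 0.133 over lines left out), Cpm (-0.207 with the slide block and without line Wt1; up to 1.046 without 129C1), Nanog (0.039 under median scaling; -0.473 to 0.045 over lines left out, the last without 129Ba1) and Hoxb2 (-0.564 without 129C1, 3.779 without Wt1).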

Other observations

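The genes below stand on none of the lists described above and were picked after their values were seen, so they stand for no group. Of genes tied to motile cilia, Morn5 was above background on 1 of the 6 Wnt inhibitor arrays and differed by -4.71 ± 0.36, and Rsph9 differed by -2.23 ± 0.27 and Zmynd10 by -2.30 ± 0.27 (limma adjusted p = 0.00818, 0.0292 and 0.0267), while Enkur, Dnajb13 and Ccdc113 were above background on no Wnt inhibitor array and on all 4 original-protocol arrays. Of 17 genes named Cfap that were tested, 2 fell and none rose (median -0.92). Of 4 genes named Dnah none was called by limma, 1 had an unadjusted p below 0.05 (median -0.31), and of 5 named Rsph 1 fell (median -0.24). The Hedgehog target genes Gli1 and Ptch1 differed by -3.26 ± 0.30 and -1.90 ± 0.20 (adjusted p = 0.0135 and 0.0212). Cyp26a1, which encodes a retinoic acid hydroxylase, was above background on 2 of the 6 Wnt inhibitor arrays and differed by -7.14 ± 0.56 (adjusted p = 0.0094).

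Of 22 protocadherin beta genes on the array, 6 were tested and 5 fell, beside the 1.04% of all genes tested that fell. These 5 passed the filter through original-protocol lines alone, so the filter favoured falls and the count is not evidence about the cluster. Pcdhb21 was above background on 1 of the 6 Wnt inhibitor arrays and the other 4 that fell on none, so the sizes of these falls are limited by background (adjusted p = 0.0268 for Pcdhb21). In IWP2-treated 129C1 Pcdhb21 averaged -1.05, against -1.02 in 129C1 without IWP2. Members of this cluster are similar in sequence, so a probe may read more than 1 of them. Olig1, a helix-loop-helix factor gene, and Zfp819 were well above background on all 6 Wnt inhibitor arrays and on none of the 4 original-protocol arrays (adjusted p = 0.00459 and 0.00345).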
